A study of Rattus norvegicus with 4 samples.

Results

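The 10 genes described here mark Kupffer cells and other macrophages, and they were read in the livers of 4 male rats. The strain was Otsuka Long-Evans Tokushima Fatty (OLETF), in which obesity and diabetes develop with age. The members were taken by gene symbol: Ctss, C1qa, C1qb, C1qc, Cd163, Cd68, Csf1r, Clec4f, Marco and Mrc1. A named probe was found for 8 of the 10, out of 8985 named genes measured in the series, and Marco and Mrc1 were not analysed here. In the thiamine group, 2 rats had been given drinking water containing 0.2% thiamine (2 g per L). This began when they were 4 weeks old and lasted 51 weeks. In the untreated group, 2 rats had drunk water with 0% thiamine. All 4 rats ate standard chow, had free access to water and were killed at 55 weeks of age after a fast of 16 h. The study kept 8 rats per group, and RNA of 2 per group was put on arrays, each rat on its own 1-colour CodeLink array with no pooling. The comparison asked how liver expression differed after long thiamine intake. With 2 rats per group the number of arrays limits the precision of every value below.

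Kupffer cells are the resident macrophages of the liver and lie in the sinusoids, where they clear particles, old red cells and microbial products from portal blood. Their survival depends on the receptor encoded by Csf1r, and the transcription factor PU.1 drives much of the macrophage programme. They are a main source of complement component C1q, a protein that is built from the products of C1qa, C1qb and C1qc and starts the classical complement pathway. In rodents the C-type lectin Clec4f is largely particular to Kupffer cells, while Csf1r, Cd68, Cd163 and Ctss are shared with other macrophages and monocytes.

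All 8 measured markers were above background on all 4 arrays. Between 18176 and 20071 of 33849 gene probes were above background per array. Of 20 hepatocyte markers, 18 were measured, and Clec4f was above background in every liver. Between 1.49% and 7.49% of gene probes per array were marked as contaminated, which touched the Cd163 spot of thiamine rat 1 and of untreated rat 1.

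The start regions of the markers are shown first as background, because PU.1 is known to act at many macrophage genes. The PU.1 gene, Spi1, had no named probe, and a part of PU.1 in the values below was not tested. RefSeq (GRCr8) start regions were matched for 7 of the 8 measured genes, all but C1qc. The 250 bases before the start are printed 5′ to 3′ on the gene's strand for 5 genes that cover the protease, the C1q chains, the lysosomal glycoprotein and the Kupffer cell lectin. Capitals mark GAGGAA and GGAAGT, letters found in PU.1 and other ETS factor sites, on either strand. The pair can overlap in shared letters. The windows are chr2:185775146-185775395 (plus strand) for Ctss, chr5:154419934-154420183 (minus strand) for C1qa, chr5:154407828-154408077 (minus strand) for C1qb, chr10:54882442-54882691 (minus strand) for Cd68 and chr4:117696408-117696657 (minus strand) for Clec4f.
Ctss: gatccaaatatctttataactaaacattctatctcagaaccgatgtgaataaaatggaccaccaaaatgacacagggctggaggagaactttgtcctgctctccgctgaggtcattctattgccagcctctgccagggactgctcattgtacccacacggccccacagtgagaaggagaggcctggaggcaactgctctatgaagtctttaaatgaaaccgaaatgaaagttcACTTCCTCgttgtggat
C1qa: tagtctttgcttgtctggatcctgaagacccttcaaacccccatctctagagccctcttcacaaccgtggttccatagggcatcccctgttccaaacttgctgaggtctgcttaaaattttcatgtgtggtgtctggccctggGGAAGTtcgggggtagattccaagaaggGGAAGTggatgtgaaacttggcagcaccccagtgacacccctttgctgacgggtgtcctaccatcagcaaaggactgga
C1qb: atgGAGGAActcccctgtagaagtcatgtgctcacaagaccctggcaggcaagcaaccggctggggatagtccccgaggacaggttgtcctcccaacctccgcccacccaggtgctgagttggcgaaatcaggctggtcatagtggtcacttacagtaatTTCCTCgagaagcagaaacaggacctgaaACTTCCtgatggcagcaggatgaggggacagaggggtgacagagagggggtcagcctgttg
Cd68: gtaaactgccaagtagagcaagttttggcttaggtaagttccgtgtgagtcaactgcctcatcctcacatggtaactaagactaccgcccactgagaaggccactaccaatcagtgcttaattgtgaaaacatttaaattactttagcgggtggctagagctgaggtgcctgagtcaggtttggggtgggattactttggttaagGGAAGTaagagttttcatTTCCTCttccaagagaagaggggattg
Clec4f: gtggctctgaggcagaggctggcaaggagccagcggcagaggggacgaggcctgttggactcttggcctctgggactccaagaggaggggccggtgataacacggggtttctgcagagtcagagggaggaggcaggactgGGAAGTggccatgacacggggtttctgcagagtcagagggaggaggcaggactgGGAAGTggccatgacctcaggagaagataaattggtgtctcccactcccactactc

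GAGGAA was present in the windows of Ctss, C1qb, Cd68 and Csf1r, 4 of 7, and in 23.3% of 33469 such windows of all genes. GGAAGT was present in 5 of 7 (Ctss, C1qa, C1qb, Cd68 and Clec4f) and in 19.2% of all windows. At least 1 of the pair was found in 6 of 7, all but Cd163, and in 36.7% of all windows. In Ctss the pair overlapped, with GGAAGT 17 and GAGGAA 15 bases before the start, and in Cd68 they began 45 and 27 bases before it. The window of Clec4f held an exact direct repeat of 56 bases, whose copies began 151 and 97 bases before the start. GGAAGT lay once in each copy, 110 and 56 bases before the start. The E-box CACGTG was found in 0 of 7 and in 5.59% of all windows. These matches describe letters only, and binding was not measured.

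The C1q chains were higher in both thiamine livers than in both untreated livers. C1qa measured 12.08 and 11.51 in thiamine rats 1 and 2 and 11.22 and 10.76 in untreated rats 1 and 2 (log2 of the normalized intensity, the scale used for every level below). The groups did not overlap, and the lower thiamine liver was 0.30 above the higher untreated one. The difference of the means was 0.81 ± 0.24 (log2, moderated SE, n = 2 per group), or 1.75-fold with a 95% interval of 1.22 to 2.52, at an adjusted p of 0.388 (limma, Benjamini-Hochberg over all probes). C1qb measured 11.41 and 11.12 with thiamine and 10.82 and 10.38 without, a difference of 0.67 ± 0.21 (adjusted p = 0.461, limma). C1qc measured 11.28 and 10.57 with thiamine and 10.32 and 10.17 without, a difference of 0.68 ± 0.24 (adjusted p = 0.552, limma). In each chain thiamine rat 1 was highest and untreated rat 2 lowest. On the GRCr8 assembly C1qb, C1qc and C1qa are consecutive protein-coding genes, so the 3 probes report on neighbouring loci. In whole liver RNA a difference in the number of macrophages and a difference in RNA per macrophage cannot be told apart, here and for every marker below.

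**Figure D1:**
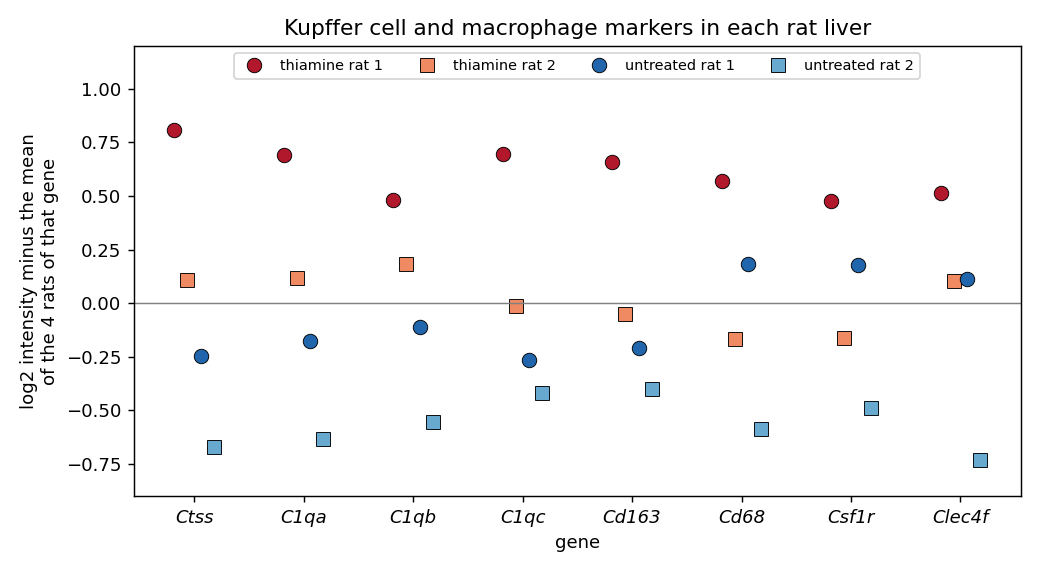
Log2 normalized intensity of each marker gene (x axis) in each of the 4 rat livers, given as the distance from the mean of the 4 rats for that gene (y axis, log2), with thiamine rats in red tones and untreated rats in blue tones. Thiamine rat 1 is highest and untreated rat 2 lowest for all 8 genes, while thiamine rat 2 lies above untreated rat 1 for 5 genes and below it for Cd68, Csf1r and Clec4f.

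Ctss, which encodes cathepsin S, a lysosomal protease that trims the invariant chain during antigen presentation, had the widest separation of the 8. Its background-subtracted intensity was 1684 and 1015 in thiamine rats 1 and 2 and 664 and 484 in untreated rats 1 and 2. After normalization these were 10.66 and 9.97 against 9.61 and 9.19. The groups did not overlap, with 0.36 between the nearest rats. The difference was 0.92 ± 0.25 (1.89-fold, 95% interval 1.29 to 2.76, adjusted p = 0.334, limma).

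Cd163, the scavenger receptor for haemoglobin bound to haptoglobin, measured 9.15 and 8.44 with thiamine and 8.28 and 8.09 without. The groups did not overlap, but the nearest rats were 0.16 apart and the 2 thiamine livers differed from each other by 0.71. The difference was 0.61 ± 0.24 (adjusted p = 0.629, limma). With flagged spots set to missing, here those marked as contaminated, 1 rat per group was left and the difference was 0.34.

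The remaining 3 markers overlapped between the groups. Cd68, a glycoprotein of macrophage lysosomes, measured 11.30 and 10.56 with thiamine and 10.91 and 10.14 without. Untreated rat 1 was thus above thiamine rat 2, and the gaps within the groups, 0.73 and 0.77, were both larger than the difference of 0.40 ± 0.29 (95% interval -0.24 to 1.04, adjusted p = 0.851, limma). Csf1r, the receptor for the growth factors CSF1 and IL-34, measured 11.73 and 11.09 with thiamine and 11.43 and 10.76 without. Its difference was 0.31 ± 0.27 (95% interval -0.27 to 0.90, adjusted p = 0.887, limma), below both gaps of 0.64 and 0.67.

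Clec4f is the marker closest to Kupffer cells themselves. Its background-subtracted intensity was 11815 and 8475 with thiamine and 7488 and 4395 without. The normalized values were 13.42 and 13.01 against 13.02 and 12.17, so thiamine rat 2 and untreated rat 1 were at the same level to within 0.01. The difference of 0.62 ± 0.27 (95% interval 0.03 to 1.21, adjusted p = 0.705, limma) had thiamine rat 1 above that level and untreated rat 2 below it.

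Clec4f and Csf1r were measured by more than 1 probe. The second Clec4f probe gave 9.68 and 9.22 with thiamine and 9.28 and 8.68 without, again with overlap, and a difference of 0.47 ± 0.24 (adjusted p = 0.797, limma). The second Csf1r probe gave 9.78 and 9.42 with thiamine and 9.37 and 8.88 without, a difference of 0.48 ± 0.22 (adjusted p = 0.745, limma). On this second Csf1r probe the groups did not overlap, so whether Csf1r separates depends on the probe. The third Csf1r probe was near background on all 4 arrays and was left out.

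Within each group the markers moved as a set. In both groups replicate 1 was above replicate 2 for 8 of 8 markers, against 24.3% of all 8985 genes. The gap between the thiamine livers ran from 0.29 for C1qb to 0.73 for Cd68, with a median of 0.67, where the median absolute gap over all genes was 0.16. The gap between the untreated livers ran from 0.15 for C1qc to 0.84 for Clec4f, with a median of 0.45 against 0.22 over all genes. The order thiamine 1, thiamine 2, untreated 1, untreated 2 was shown by 5 markers and by 3.73% of all genes, and the order with the middle rats exchanged by the other 3 and by 3.06% of all genes. Because the markers share the 4 livers, these counts describe the rats and are not 8 independent observations.

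Set against those gaps, the group difference was of similar size. Averaged over the 8 markers, the distance from the mean of the 4 rats was 0.61 in thiamine rat 1, 0.02 in thiamine rat 2, -0.07 in untreated rat 1 and -0.56 in untreated rat 2. The step within the thiamine group was thus 0.60 and the step within the untreated group 0.49, while the group means differed by 0.63 and the 2 middle rats by 0.08. The difference exceeded both within-group gaps for Ctss, C1qa and C1qb, 3 of 8 or 37.5%, and for 24.4% of all genes. With 2 against 2 rats an exact permutation test of a single value cannot go below p = 0.333.

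**Figure D2:**
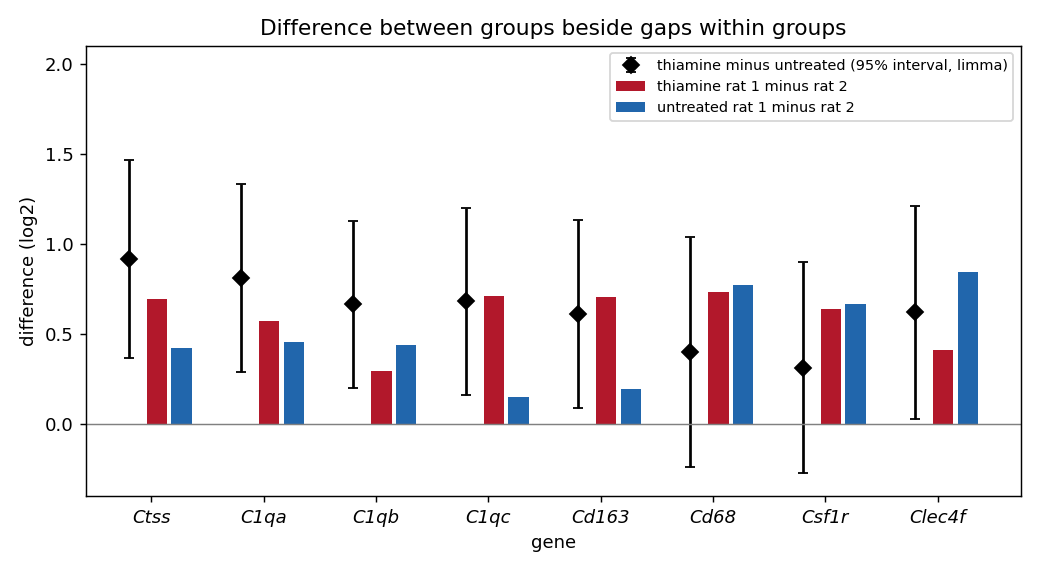
For each marker gene (x axis), the diamond is the thiamine minus untreated difference with its 95% interval from limma, the red bar the gap between thiamine rats 1 and 2 and the blue bar the gap between untreated rats 1 and 2 (y axis, log2). The difference is taller than both bars for Ctss, C1qa and C1qb and shorter than both for Cd68 and Csf1r.

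All 8 differences were above 0, with a median of 0.64, where 50.6% of all genes were above 0 and their median was 0.003. No marker passed the test over all probes: limma called 0 of 18664 probes at an adjusted p under 0.05 (percent called, 0), with 1260 probes, or 6.75%, at an unadjusted p under 0.05. At that unadjusted threshold 6 of 8 markers were higher in the thiamine livers, all but Cd68 and Csf1r, against 3.83% of all genes. Under other processing of all 4 arrays this count was 4 to 6. These p values and the intervals rest on SEs drawn towards that of all probes. The markers' own gaps were wider than those of all genes, with medians of 0.67 against 0.16 with thiamine and 0.45 against 0.22 without. The low p values and the intervals above 0 thus depend on variance shared across probes. The groups did not overlap for 5 of 8 markers, against 18.5% of all genes. A p that misses the threshold does not show that Cd68 or Csf1r was equal in the groups, as their intervals show. The median difference moved with single rats, to 0.37 without thiamine rat 1, 0.48 without untreated rat 2, 0.84 without untreated rat 1 and 0.90 without thiamine rat 2. The number of markers at an unadjusted p under 0.05 was then 0, 1, 7 and 7, in fits where the lone rat of a group is assumed to vary like the pair of the other group. For every marker, the most lowering omission of 1 rat cut the difference about 1.5 times or more, while some upward moves were smaller. The lowest differences came without thiamine rat 1 for Ctss (0.57), C1qa (0.52), C1qc (0.32) and Cd163 (0.26), and without untreated rat 2 for C1qb (0.44), Clec4f (0.19), Cd68 (0.01) and Csf1r (-0.02). The highest came without thiamine rat 2 for Ctss (1.28), C1qa (1.101), C1qc (1.05) and Cd163 (0.96), and without untreated rat 1 for C1qb (0.89), Clec4f (1.05), Cd68 (0.79) and Csf1r (0.65). Csf1r was also below 0 without thiamine rat 1, at -0.01. With the replicate number as a block Ctss passed (adjusted p = 0.0305, limma), although nothing in the labels says that equal numbers mark a shared origin. The labels say that rats were housed 2 to a cage, but not which ones.

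Genes outside the markers with a like pattern were found by the root mean square distance, over the 4 arrays, between a gene's mean-centred log2 values and the mean of the 8 markers. The 8 nearest of 8977 genes with a value on every array were Ift46 (0.04), Fabp12 (0.06), Aif1 (0.06), Adhfe1 (0.07), Ly86 (0.08), Fcrl1 (0.09), Ccl6 (0.09) and Cfp (0.10), each value a distance on the log2 scale. Aif1 encodes the macrophage protein IBA1, Ly86 a partner of a Toll-like receptor homologue on myeloid and B cells, Ccl6 a chemokine of macrophages and Cfp properdin, which stabilises the alternative complement convertase. Ift46, a part of cilia, and Adhfe1, a mitochondrial dehydrogenase, have no such known tie. Of the 8, only Aif1, Ly86 and Ccl6 were on the lists used here, so Fabp12 and Fcrl1 were on none. Fcrl1 was near background on 1 array. With flagged spots set to missing, the difference went from 0.56 to 0.47 for Ift46 and from 0.57 to 0.35 for Adhfe1. Aif1 measured 10.83 and 10.33 with thiamine and 10.32 and 9.70 without. Ccl6 measured 11.99 and 11.53 against 11.20 and 10.84, a difference of 0.75 ± 0.22 (adjusted p = 0.388, limma), and its groups did not overlap. The distances of the markers themselves, which made up the mean, ran from 0.09 for C1qa to 0.17 for Csf1r. Likeness over 4 livers is a description, and any profile has near neighbours among this many genes.

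**Figure D3:**
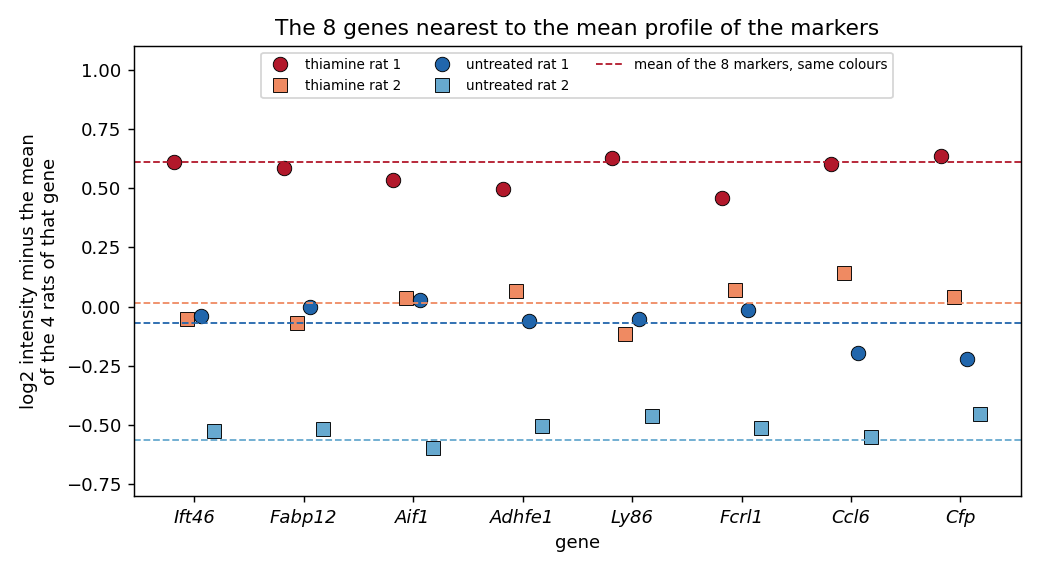
Log2 normalized intensity of the 8 nearest genes (x axis) in each rat, as the distance from the mean of the 4 rats for that gene (y axis, log2); dashed lines give the mean of the 8 markers in the rat of the same colour. Thiamine rat 1 lies between 0.46 and 0.63 and untreated rat 2 between -0.60 and -0.46 in these genes.

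Other genes of the macrophage programme had a smaller median difference than the markers. The markers and these lists were chosen with earlier results of these data known, so this contrast was not tested. Of 61 further genes on the 2 lists of macrophage genes, 40 were measured, with 29 above and 11 below 0 and a median difference of 0.16. None was called over all probes, 2 were higher at an unadjusted p under 0.05 against 3.83% of all genes, and 7 were higher and 2 lower without overlap, against 18.5% and 19% of all genes. The surface list held Adgre1, an adhesion receptor used as a macrophage marker, at 0.56 ± 0.25, the sialic acid receptor Siglec1 at 0.46 ± 0.23, the signalling adaptor Tyrobp at 0.44 ± 0.24, the C3a receptor C3ar1 at 0.31 ± 0.18 and the inhibitory receptor Lilrb4 at -0.36 ± 0.21. Among genes acting inside the cell were the transcriptional regulator Id3 at 0.61 ± 0.19, Aif1 at 0.57 ± 0.25, Ly86 at 0.51 ± 0.25, and the oxidase subunits Cybb at 0.36 ± 0.22 and Ncf4 at 0.33 ± 0.20. Leaving out 1 rat gave 0.16 to 0.94 for Adgre1, 0.14 to 0.79 for Siglec1, 0.074 to 0.81 for Tyrobp, -0.60 to -0.11 for Lilrb4, 0.25 to 0.88 for Aif1, 0.14 to 0.88 for Ly86, 0.10 to 0.62 for Cybb and 0.13 to 0.53 for Ncf4. Replicate 1 was above replicate 2 in both groups for 21 of these 40 genes, and 11 of them lay among the 200 genes nearest to the markers, which is 2.23% of all genes ranked. Axl, Fcer1g, Cd86, Trem2, Cd200r1, Cd4, Lyz2, Cyba, Ptprc, Tlr4, Tlr7, Pld4, Spic and Ctsh had a named probe but did not pass the filter on dim spots.

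The cytokine list was measured for 9 of 14 genes, 8 higher and 1 lower, with a median of 0.33. Over the 6 genes above background on all 4 arrays the median was 0.26. Besides Ccl6, Tnf measured 9.65 and 9.68 with thiamine and 9.28 and 9.30 without (0.38 ± 0.18), a separation in which both rats of a group lay together, unlike the markers. Il1b was at 0.46 ± 0.20 and Il18 at 0.54 ± 0.27, each near background on 1 array, and leaving out 1 rat gave 0.29 to 0.62 for Il1b and 0.079 to 1.01 for Il18. Il1rn, the antagonist of the IL-1 receptor, was lower with thiamine, at 10.25 and 9.88 against 10.72 and 10.41 (-0.50 ± 0.20), or -0.68 to -0.32 with 1 rat left out. Over this list limma gave no adjusted p below 0.388.

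Of genes of lipid-associated and scar-associated macrophages, all 3 measured had replicate 1 above replicate 2 in both groups, against 24.3% of all genes. Trem2, Cd9, Spp1 and Lpl did not pass the filter on dim spots, and 3 of 9 listed genes were measured. Gpnmb, a membrane glycoprotein of lipid-laden macrophages, measured 10.33 and 9.45 with thiamine and 10.64 and 9.77 without. Its gaps within the groups, 0.88 and 0.87, were larger than its difference of -0.31 ± 0.32, and replicate 1 was again the higher rat in both groups. Lgals3 was at 0.24 ± 0.21 and Cd63 at -0.01 ± 0.20, or 0.01 with median scaling. Of 11 listed genes of monocyte recruitment 6 were measured, with a median of 0.05, and Ccr2 and Cx3cr1, receptors that define blood monocytes, did not pass the filter.

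The molecular partners of the markers did not all follow them. C1q acts with the proteases C1r and C1s, made largely by hepatocytes. C1r measured 12.40 and 12.57 with thiamine and 12.59 and 12.45 without, a difference of -0.03 ± 0.18. C1s was at -0.13 ± 0.20, or 0.07 with flagged spots set to missing. The next component C2 was at 0.13 ± 0.22, and the C1 inhibitor Serping1 was at 13.75 and 13.76 with thiamine and 13.98 and 13.89 without, or -0.18 ± 0.18. Of proteins reported to bind C1q, Calr was at -0.47 ± 0.20 with no overlap, Cd93 at 0.29 ± 0.18 with no overlap and C1qbp at -0.10 ± 0.18. Of the 7 measured C1q partners 2 were higher and 5 lower (median -0.10), beside the C1q chains at 0.67 to 0.81.

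For Csf1r, the ligand Il34 measured 9.64 and 9.16 with thiamine and 8.63 and 9.06 without (0.56 ± 0.22, adjusted p = 0.645, limma), with no overlap. The other ligand, Csf1, overlapped, at 9.31 and 8.64 against 9.23 and 8.997 (-0.14 ± 0.23).

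For Ctss, the related protease Ctsl was 10.70 and 10.84 with thiamine and 10.35 and 10.29 without (0.45 ± 0.18, adjusted p = 0.643, limma), and the rats of each group lay close together. The legumain gene Lgmn was at 0.18 ± 0.19. The invariant chain Cd74, which cathepsin S trims, measured 12.03 and 11.51 with thiamine and 11.99 and 11.08 without (0.23 ± 0.29), and its larger gap lay between the untreated rats. Of the cystatins, inhibitors of these proteases, Cst3 was at -0.11 ± 0.18, or 0.004 with flagged spots set to missing. Cst7 was at -0.02 ± 0.18 and Cstb at 0.20 ± 0.23.

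For Cd163, the gene of its ligand haptoglobin, Hp, was at 0.01 ± 0.18 (95% interval -0.38 to 0.40), or -0.13 with median scaling. Hpx, which encodes hemopexin, a plasma carrier of free haem, was at -0.15 ± 0.19 (95% interval -0.58 to 0.28). Haem oxygenase 1, Hmox1, which degrades the haem that Cd163 brings in, measured 10.40 and 9.67 with thiamine and 10.31 and 9.44 without. Its gaps of 0.73 and 0.88 were several times its difference of 0.16 ± 0.30, and the higher rats were again those numbered 1. The iron exporter Slc40a1 was at 0.10 ± 0.21, the biliverdin reductase Blvrb at 0.03 ± 0.18, and the ferritin chains Fth1 and Ftl1 at -0.11 ± 0.18 and -0.01 ± 0.18, the last at 0.04 in the deposited table.

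Markers of other liver cells were read beside these values. The summed normalized intensity of the 8 Kupffer cell and macrophage markers was 28622 and 19948 in thiamine rats 1 and 2 and 19529 and 12547 in untreated rats 1 and 2. That of the 16 measured of 22 endothelial markers ran from 12329 to 12746 with thiamine and from 9703 to 11067 without, with 12 higher and 4 lower and a median of 0.25. Lyve1, a hyaluronan receptor of the sinusoidal endothelium, measured 10.82 and 10.52 with thiamine and 9.72 and 10.08 without (0.77 ± 0.20), Gpr182 was at 0.66 ± 0.20 and Pecam1 at 0.55 ± 0.18, while Kdr and Oit3 were at 0.42 ± 0.20 and 0.44 ± 0.26. Leaving out 1 rat gave 0.20 to 0.64 for Kdr and -0.012 to 0.90 for Oit3. The gaps within groups went both ways among these genes: replicate 1 minus replicate 2 was 0.30 with thiamine and -0.36 without for Lyve1, and -0.08 and 0.91 for Oit3. Their signed mean over the list, in which opposite gaps cancel, was 0.09 and 0.07, beside a group difference of 0.26. The hepatocyte list summed to 339818 to 367887 with thiamine and 347007 to 349452 without, with 7 of 18 genes higher and 11 lower. Its median difference was -0.03 and its mean 0.05, so the sign depends on the summary. Without overlap 4 were higher and 2 lower, against 18.5% and 19% of all genes. Single hepatocyte genes did separate: Cps1 measured 13.21 and 13.21 with thiamine and 12.77 and 12.58 without (0.53 ± 0.18). Tat overlapped, at 12.16 and 13.39 against 12.65 and 11.87 (0.51 ± 0.36). Among the lower genes Ahsg was at -0.18 ± 0.18. Replicate 1 was the higher rat in both groups for 1 of 18 hepatocyte genes and 5 of 16 endothelial genes.

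The stellate cell list summed to 6730 to 7214 with thiamine and 6148 to 7114 without. Of its 16 genes 7 were measured, 5 of them higher, with a median of 0.13. Tagln, among the higher genes, was near background in both untreated rats. Over the 6 genes above background on all 4 arrays the median was 0.07. T and NK cell markers were measured for 8 of 17 genes (2389 to 2446 against 2202 to 2496). Their median was 0.15, or -0.19 over the 5 genes above background on all 4 arrays, and Cd8a, Cd8b, Cd2 and Cd5 did not pass the filter. B and plasma cell markers were measured for 3 of 10 (2092 to 2155 against 1777 to 2143, median 0.04) and dendritic cell markers for 4 of 8 (1302 to 1668 against 1231 to 1258, median 0.17). Of 11 neutrophil markers 2 were measured (396 to 527 against 503 to 513, median -0.11), with S100a8 and Mpo below the filter. Cholangiocyte markers were measured for 2 of 8 (732 to 850 against 685 to 1159, median -0.01) and red cell markers for 3 of 9 (906 to 1077 against 810 to 1011, median 0.15). The part of any of these cells in the values of the markers was not tested.

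**Figure D4:**
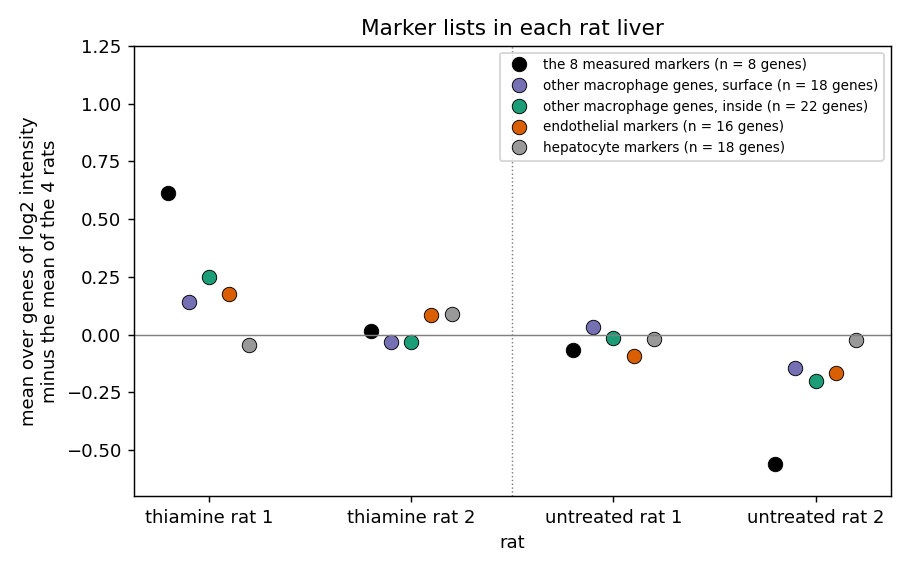
Mean over the genes of each list of the log2 normalized intensity less the mean of the 4 rats (y axis, log2), for each rat liver (x axis). The 8 markers span 0.61 to -0.56, the other macrophage genes 0.25 to -0.20 at most, and the hepatocyte markers stay between -0.04 and 0.09.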

How the data were processed

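Per the file headers, CodeLink Expression Analysis (5.0.0.31312) made the 4 scanner reports, which hold intensity on a linear scale (spot mean, local background median and their difference). A deposited table gives 1 intensity per probe and array, in the same order as the scanner's (Spearman's rho of 1). Its making by the authors is not stated in these sources, and it served as an alternative. Background was corrected with normexp (offset 50) over 35129 features, 1280 control features were left out, and log2 values were quantile normalized. Kept were the 18664 probes above background in both rats of the thiamine group, the untreated group or both. Masked spots, 55 to 67 per array, were missing. Probes were named from the platform annotation (16740 with 1 symbol, 165 with several left unnamed, 13 in conflict left unnamed, 16564 with no name here) or by RefSeq accession (367). A gene is given by its brightest kept probe. The comparison used R 4.3.3 with limma 3.58.1 (two-sided, 2 residual degrees of freedom, 10.8 after moderation, threshold 0.05), so each SE is drawn towards that of all probes. The fit was tested on simulated data with independent noise and added changes larger than those of the markers. That test thus did not cover gaps shared by several genes. The members, lists, motifs and tests were chosen with earlier results of these data known, so no list was tested. Named were all members, the measured partners on 4 lists, up to 5 genes of each other list by unadjusted p, and the 8 genes nearest to the markers. A partner gene covered by this rule is not reported here. Alternatives changed the background, offset, scaling, filter, probe choice or input table, set flagged spots to missing, blocked on replicate number, or left out a rat.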

Additional observations from a re-analysis of the deposited data

How the results depend on the processing

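With all 4 arrays, the median of the 8 markers stayed between 0.63 and 0.70 over 9 alternatives. In these, 4 to 6 markers were higher without overlap, against 17.4% to 20.4% of all genes. The 4 came with flagged spots set to missing, when Cd163 could not be judged and 7 markers had all values. The difference exceeded both gaps for 3, and no marker reversed. Median scaling moved the median of all genes to 0.02. Leaving out 1 rat gave a median from 0.37 to 0.90 and 5 to 8 markers without overlap, when 31.0% to 38% of all genes were higher without overlap. The number of probes called was 0 under the other alternatives with all arrays, 126 with the replicate block, and from 2 to 87 with 1 rat left out. The differences between replicates 1 and 2 of the 2 groups had r = -0.0737 over all kept probes. A value over all probes cannot decide whether equal numbers mark a shared origin that touches a small set of genes, such as the markers. A shared origin was not tested. Under the block Ctss was the 1 marker past the threshold, and the others lay between an adjusted p of 0.0742 and 0.967 (limma). Csf1r ranged from -0.023 to 0.65 with 1 rat left out. Of the other genes that reversed, Hp was at -0.13 and Cd63 at 0.0078 with median scaling, C1s at 0.068 and Cst3 at 0.0039 with flagged spots missing, and Ftl1 at 0.039 in the deposited table. With 1 rat left out, C1s ranged from -0.33 to 0.078, C1r from -0.12 to 0.052, C2 from -0.16 to 0.43, Csf1 from -0.47 to 0.20, Cd74 from -0.23 to 0.68, Cstb from -0.10 to 0.49, Cst7 from -0.14 to 0.11, Hp from -0.013 to 0.031, Hpx from -0.35 to 0.033, Hmox1 from -0.28 to 0.60, Slc40a1 from -0.15 to 0.34, Blvrb from -0.011 to 0.078, Ftl1 from -0.045 to 0.011, Gpnmb from -0.75 to 0.13, Cd63 from -0.23 to 0.21 and Oit3 from -0.012 to 0.90. The causes were not tested. Of the markers, Cd163 is limited by spots marked as contaminated in 2 of 4 rats.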
